A study of Rattus norvegicus with 421 samples.

Results

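The livers of male rats given 2-acetylaminofluorene (2-AAF) at 1.2 mg/kg by daily gavage were followed over 1, 3, 7 and 14 days. All arrays whose labels name this treatment were taken, which gave 12 of the 421 arrays of the series, 3 for each day. The series profiles liver RNA of rats treated with many different compounds or with a vehicle, on the Affymetrix RAE230A array. Of its other arrays, 12 from the vehicle group that the labels assign to 2-AAF (CMC_1B) served as the comparison, again 3 for each day. These animals had received carboxymethylcellulose alone for the same number of days. Phenobarbital (PB, 80 mg/kg) has the same vehicle group by the labels, and its 12 arrays were used for 1 further contrast. Groups under 1 vehicle code, such as CMC_1B, are called a study block below. Whether their animals were handled together was not established. 2-Nitrofluorene (2-NF, 44 mg/kg) and its corn oil vehicle group CO_1C, with 6 arrays each from days 3 and 7, were set beside 2-AAF without a test. Levels in vehicle groups of other study blocks, among them 5 further carboxymethylcellulose groups a day, are given where a result turns on them. All animals were Wistar Hanover rats, with strain label Crl:WI[Gl/BRL/Han]IGS BR, aged 8 to 10 weeks at the start, and each array held the liver RNA of 1 animal. Groups were dosed as 5 animals and profiled as 3. Animals for the arrays were picked by histopathology, among those with some change in the liver, as the methods of the study state for treatment groups, so the spread between replicates is a spread between chosen animals. The compound 2-AAF is not among those listed in these methods, and its dose, times and vehicle were taken from the labels.

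2-AAF is an aromatic amide and a classical liver carcinogen of the rat. In liver it is N-hydroxylated, mainly by the cytochrome P450 enzyme CYP1A2, and the N-hydroxy product is turned by sulfotransferases and acetyltransferases into an ester that binds covalently to guanine in DNA. Such bulky adducts are removed by nucleotide excision repair. DNA damage stabilises the transcription factor p53, which raises genes that halt the cell cycle, assist repair or restrain p53 itself. Liver cells also answer foreign compounds through receptors that raise detoxification enzymes, among them the constitutive androstane receptor and the pregnane X receptor (CAR and PXR), the aryl hydrocarbon receptor (AHR), and the transcription factor NRF2 of the antioxidant response.

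Before the compound was compared with its vehicle, all 24 arrays were examined for transcripts of other tissues, because 2 of the vehicle arrays were in doubt. Values throughout are the deposited log2 expression values. The 18 measured pancreas markers averaged 9.28 on vehicle array 3 of day 7 and between 6.30 and 6.59 on the other 23 arrays. On this array 14 of the 18 lay over 2-fold above their median, among them the pancreatic amylase gene Amy2a3 with 11.13, against 4.38, 4.53 and 4.48 in the 2-AAF animals of that day and 4.56 and 4.43 in the other two vehicle animals. The 23 skeletal muscle markers averaged 8.26 on the same array, 7.81 on vehicle array 3 of day 14 and 6.17 to 6.42 on all others. The muscle actin gene Acta1 had 4.83, 4.74 and 4.89 in the 2-AAF animals of day 14, against 4.78, 4.86 and 10.53 in the vehicle animals. Vehicle array 3 of day 14 also stood out for keratins of stratified epithelia, which were looked at after their values had been seen, such as Krt4 with 7.53, 7.32 and 7.49 in 2-AAF animals, against 7.79, 7.79 and 10.71 in vehicle animals. No 2-AAF array showed such an excess. Probe sets that lay over 2-fold above every other array numbered 43 and 6 on these 2 vehicle arrays and at most 1 on any other.

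**Figure D1:**
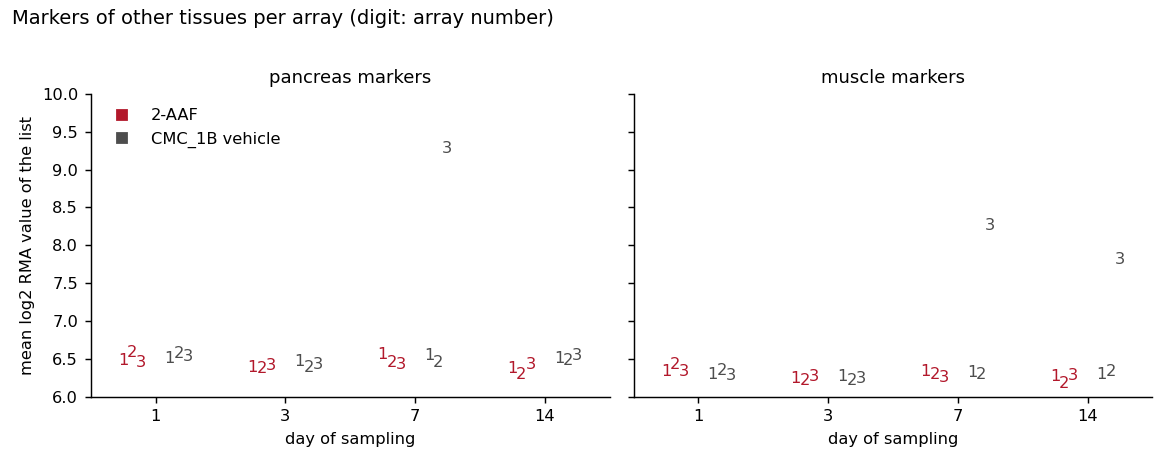
Mean log2 value of the 18 pancreas markers and the 23 muscle markers on each of the 24 arrays, by day, with 2-AAF left of vehicle; the digit is the array number. Vehicle array 3 of day 7 lies at 9.28 and 8.26, and vehicle array 3 of day 14 at 7.81 for muscle, while all other arrays stay between 6.17 and 6.59.

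The other arrays carried the profile of liver. The means of 11 hepatocyte markers were 13.21 to 13.41 in 2-AAF animals and 13.24 to 13.41 in vehicle animals. Within days, the means of the 11 lists of cell type and tissue markers were compared 44 times. In 10 of these the groups did not overlap, 3 with 2-AAF above and 7 with 2-AAF below vehicle. How often groups of 3 arrays lie apart over all genes was not counted, so these 10 are a description. Hepatocyte markers averaged 13.30 to 13.35 in 2-AAF animals and 13.36 to 13.41 in vehicle animals of day 1. Macrophage markers averaged 9.30 to 9.55 in 2-AAF animals and 9.02 to 9.13 in vehicle animals of day 7, but over all days the ranges were 9.04 to 9.61 and 9.02 to 9.78. Endothelial markers averaged 8.68 to 8.82 against 8.48 to 8.64 on day 3 and 8.62 to 8.70 against 8.37 to 8.47 on day 14, and lymphocyte markers 6.13 to 6.21 against 6.25 to 6.33 on day 14. No gene of these 4 lists was called on any day. The pancreas, muscle and adipose lists lay below vehicle on day 14 and the red cell list on days 1 and 14. The part of these cell types in the results below was not tested. In whole liver, more cells of a type and more RNA per cell cannot be told apart. The comparisons of days 7 and 14 were computed with and without vehicle array 3 of the day, and the value without it is given where it changed the call of a gene described below.

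A probe set was called when its Benjamini-Hochberg adjusted p over all 15866 probe sets was below 0.05 and its change was at least 1.5-fold. Few were called early and more later. On day 1 there were 33 (0.208% of those tested), 9 higher and 24 lower in 2-AAF than in vehicle livers. Day 3 gave 6 (0.0378%), 3 in each direction. Day 7 gave 61 (0.384%), 26 higher and 35 lower, and day 14 gave 138 (0.87%), 109 higher and 29 lower. Much of the lower side was set by vehicle array 3. Without it, 21 (0.132%) were called on day 7, 18 higher and 3 lower, and 144 (0.908%) on day 14, 130 higher and 14 (0.0882%) lower. The list of pancreas markers shows this directly, since 11 of them were called lower on day 7 with this array and 0 without it, and the muscle markers lost all 6 calls on day 7 and all 6 on day 14. The limma fit without array 3 left Acta1 a change of 0.00 on both days.

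**Figure D2:**
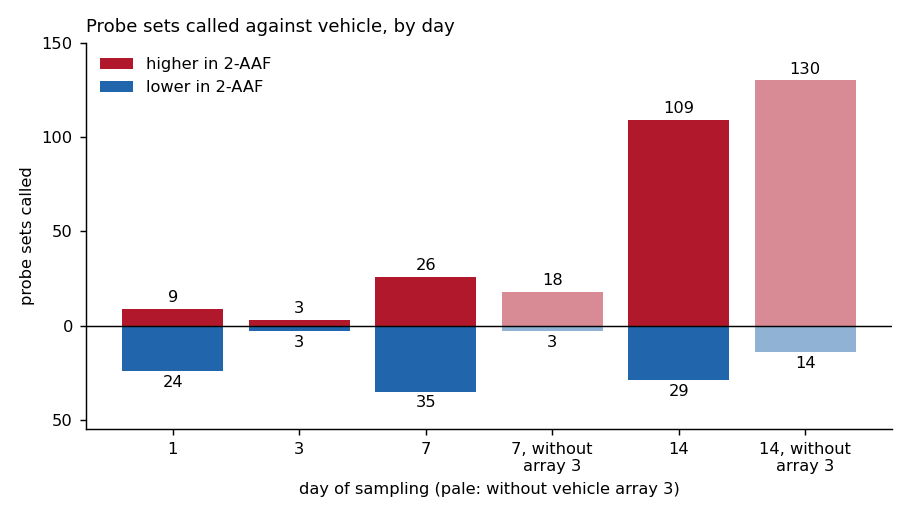
Number of probe sets called higher (above 0) or lower (below 0) in 2-AAF than in vehicle livers on each day, of 15866 tested, with all vehicle arrays (dark) and without vehicle array 3 of days 7 and 14 (pale). The higher side grows to 109 on day 14, whereas the lower side of day 7 shrinks to 3 when array 3 is left out.

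Of the 26 probe sets higher on day 7, 19 were also higher on day 14, which is 73.1% of the day 7 calls and 17.4% of the 109 on day 14. Of the 35 lower on day 7, 7 were also lower on day 14 (20.0% of these calls and 24.1% of the 29 on day 14), and without vehicle array 3 none of the 3 was. The 109 were selected for day 14, so their values on that day carry no further evidence. On day 3, with other animals throughout, 99 of them (90.8%) lay above vehicle, with a median change of 0.17, while 47.8% of all probe sets did. On day 7 it was 89 (81.7%, against 49.6% of all) with a median of 0.25, and on day 1 it was 63 (57.8%, against 53.9% of all) with a median of 0.04. Only 4, 3 and 19 of them were called on days 1, 3 and 7. Of the 130 called higher without vehicle array 3, 83.1% lay above vehicle on day 3, 76.2% on day 7 and 54.6% on day 1. The shares of all probe sets were then 47.8%, 48.5% and 53.9%. Of the 29 lower on day 14, 25 (86.2%) lay below vehicle on day 7, against 50.4% of all. Without vehicle array 3 it was 8 of 14 (57.1%, against 51.5% of all).

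Genes of the p53 response rose on days 7 and 14, Ccng1 and Cdkn1a on both days under every setting tried. Of the list of 25 p53 targets 14 were measured, and those called higher numbered 0, 0, 3 and 5 on days 1, 3, 7 and 14, while none was called lower by limma. An unadjusted p below 0.05 was reached by 1, 2, 5 and 6 of the 14. Over all genes the shares were 18.4%, 7.15%, 15.8% and 25.1%. The share of all probe sets called higher was 0.0567%, 0.0189%, 0.164% and 0.687% on these days. The list median was -0.046, 0.12, 0.116 and 0.22, against 0.016, -0.002, 0.006 and -0.018 over all 10411 genes. Without vehicle array 3 the counts were 2 on day 7 and 5 on day 14.

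Ccng1 encodes cyclin G1, a p53 target that acts back on p53 through Mdm2. It had 8.35, 8.36 and 8.30 in 2-AAF livers of day 1, against 8.34, 8.46 and 8.25 in vehicle livers. On day 3 the change of 0.65 ± 0.17 (limma SE, n = 3 each) missed the threshold (adjusted p = 0.14). The values, 8.71, 9.16 and 8.75 in 2-AAF livers and 8.25, 8.19 and 8.24 in vehicle livers, no longer overlapped. By day 7 they were 9.73, 9.76 and 10.00 against 8.37, 8.22 and 8.43 in vehicle livers, and by day 14 they were 10.23, 10.45 and 10.48 against 8.62, 8.22 and 8.51. All 2-AAF animals of both days stood more than 1 log2 unit above every vehicle animal. The rises of 2.81-fold on day 7 and 3.84-fold on day 14 had adjusted p values of 9.5e-12 and 1.3e-20 in limma. Here and below, each SE and p value rests on a variance shared over all groups of the 421 arrays, not on these animals alone. Separation of the groups was read on the arrays that gave the calls and adds no evidence to them.

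Cdkn1a, which encodes the cyclin-dependent kinase inhibitor p21, had 11.22, 10.27 and 10.13 in 2-AAF livers of day 7 and 9.34, 8.98 and 8.48 in vehicle livers. On day 14 it had 10.25, 10.39 and 11.37 in 2-AAF livers and 8.69, 9.08 and 8.94 in vehicle livers. The groups were apart on both days, with 1 animal of each treated group about 1 log2 unit above the other two. The rises were 3.05-fold (adjusted p = 0.00034) and 3.4-fold (adjusted p = 1.7e-05), and a second probe set of Cdkn1a rose by 1.62 and 1.34 on the log2 scale (adjusted p = 0.0054 and 0.012). On days 1 and 3 the changes were 0.32 ± 0.31 and 0.43 ± 0.31, not called.

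Mdm2, the ubiquitin ligase that targets p53 for degradation, had 7.83, 7.79 and 7.89 in 2-AAF livers of day 7 against 7.04, 7.15 and 7.16 in vehicle livers, a 1.65-fold rise (adjusted p = 0.014) that was of the same size without vehicle array 3 but no longer passed (adjusted p = 0.051). On day 14 it had 8.58, 8.65 and 9.80 in 2-AAF livers and 7.43, 7.12 and 7.30 in vehicle livers, a 3.3-fold rise (adjusted p = 9.1e-15). The animal with 9.80 was the same array, number 3, that was highest for Cdkn1a. A second probe set of Mdm2 changed by 0.21 on day 7 and rose by 0.66 on day 14 (adjusted p = 0.00015).

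Other p53 targets passed only on day 14. Plk2, a polo-like kinase, had 10.93, 11.28 and 11.21 in 2-AAF livers and 9.78, 9.73 and 9.80 in vehicle livers, a 2.58-fold rise (adjusted p = 0.00036). Phlda3, which restrains the kinase Akt, had 10.17, 10.65 and 10.30 against 9.64, 9.36 and 9.44 in vehicle livers, a 1.86-fold rise (adjusted p = 0.004). On day 7 their changes were 0.77 ± 0.28 and 0.58 ± 0.22, with groups apart but not called (adjusted p = 0.12 and 0.14). The measured targets Ddb2, Ei24, Fas, Gdf15, Perp, Sesn1, Xpc and Zmat3 changed by -0.16 to 0.25 on day 14, and Gadd45a, an early DNA damage gene, by 0.80, -0.71, -0.13 and -0.28 over the 4 days, none of them called. A dimmer second probe set of Ddb2 ran the other way, with changes of -0.58 on day 1 (adjusted p = 0.00051, under 1.5-fold) and -0.36 on day 14 (adjusted p = 0.027, under 1.5-fold), against -0.05 and 0.15 for the first. A second probe set of Perp changed by 0.36 on day 14 (adjusted p = 0.11).

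**Figure D3:**
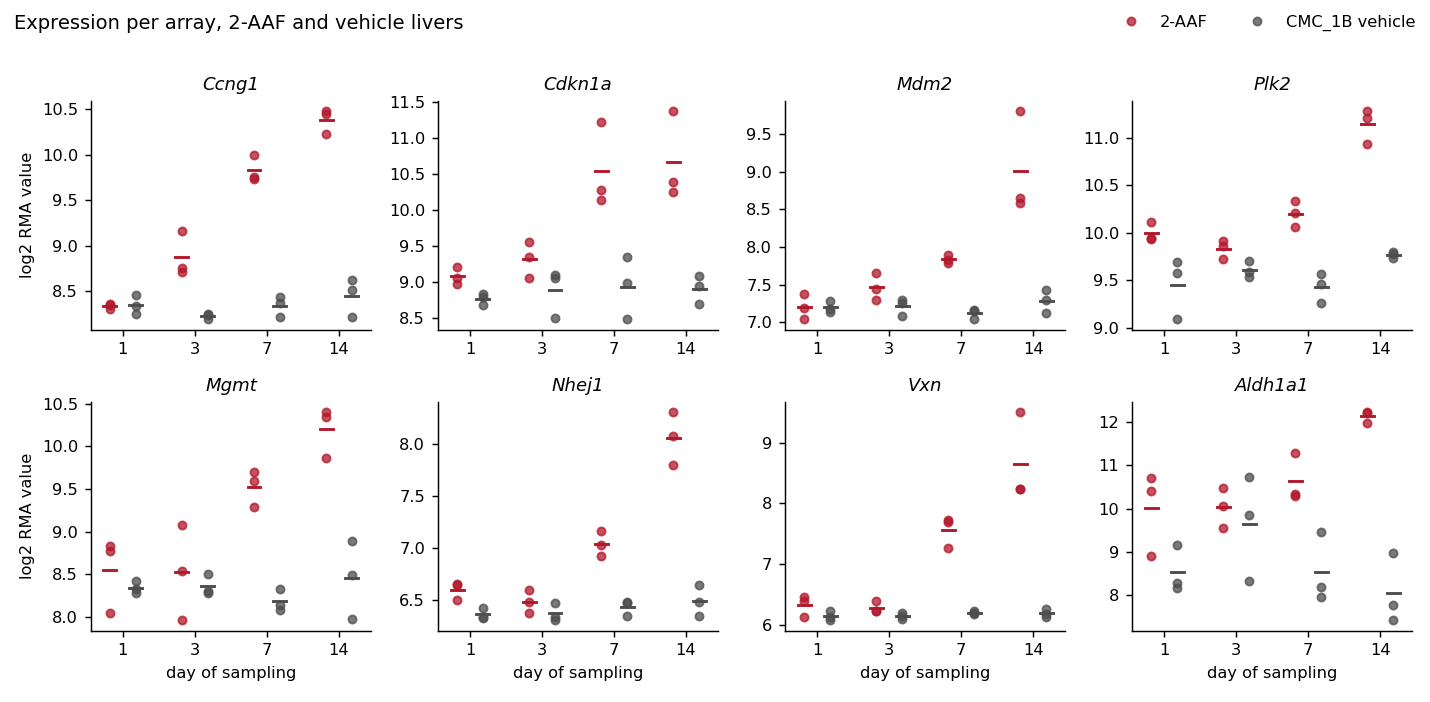
Log2 value of 8 genes on each array by day, 2-AAF left of vehicle, with bars at the group means of 3 animals. Ccng1, Cdkn1a, Mdm2, Plk2, Mgmt, Nhej1 and Vxn are separated from vehicle on days 7 and 14, and Aldh1a1 reaches 11.98 to 12.23 in 2-AAF livers of day 14 against 7.41 to 8.97 in vehicle livers.

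The promoters of the p53 and NRF2 targets that were called higher on at least 2 days are shown because these members had repeated calls, that of Mdm2 on day 7 only with vehicle array 3, and 4 of 4 such genes were found in the RefSeq promoter table (build GRCr8). Each window runs from 250 bases before to 50 bases after an annotated start and is written in the direction of the gene, with matches in capitals. The motifs searched on both strands were the p53 half-site and the antioxidant response element TGACNNNGC, and no match of one overlapped a match of the other.
Cdkn1a, chr20:7150682-7150981, plus strand: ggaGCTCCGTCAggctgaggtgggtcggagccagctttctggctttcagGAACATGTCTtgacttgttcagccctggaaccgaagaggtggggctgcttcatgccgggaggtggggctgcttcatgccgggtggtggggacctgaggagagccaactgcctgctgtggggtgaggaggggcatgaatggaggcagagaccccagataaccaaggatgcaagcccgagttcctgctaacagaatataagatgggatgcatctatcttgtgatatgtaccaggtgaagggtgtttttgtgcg
Ccng1, chr10:25684827-25685126, minus strand: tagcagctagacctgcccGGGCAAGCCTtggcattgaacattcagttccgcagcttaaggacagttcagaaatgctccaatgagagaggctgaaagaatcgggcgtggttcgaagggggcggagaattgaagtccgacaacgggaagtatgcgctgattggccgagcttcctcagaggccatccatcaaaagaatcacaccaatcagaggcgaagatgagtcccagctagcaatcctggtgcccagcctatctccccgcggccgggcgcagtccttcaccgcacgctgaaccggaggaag
Mdm2, chr7:55200742-55201041, minus strand: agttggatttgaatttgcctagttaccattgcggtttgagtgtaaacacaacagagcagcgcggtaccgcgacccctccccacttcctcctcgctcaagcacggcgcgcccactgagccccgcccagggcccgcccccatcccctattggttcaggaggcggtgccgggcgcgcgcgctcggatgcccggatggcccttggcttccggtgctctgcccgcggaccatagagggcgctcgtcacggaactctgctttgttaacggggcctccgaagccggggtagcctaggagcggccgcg
Ephx1, chr13:95263068-95263367, minus strand: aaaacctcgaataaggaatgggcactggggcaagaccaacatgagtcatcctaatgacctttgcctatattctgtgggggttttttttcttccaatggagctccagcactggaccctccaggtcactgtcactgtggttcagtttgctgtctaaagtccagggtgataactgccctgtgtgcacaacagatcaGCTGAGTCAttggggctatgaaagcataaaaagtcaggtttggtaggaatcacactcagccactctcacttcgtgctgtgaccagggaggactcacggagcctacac
The Cdkn1a window held a p53 half-site at bases -201 to -192 from the start and an antioxidant response element, read on the opposite strand, at -247 to -239. Ccng1 held a p53 half-site at -232 to -223, the Ephx1 window an antioxidant response element on the opposite strand at -57 to -49, and Mdm2 neither. The Ephx1 window shown lies at a start inside the annotated gene. The table holds another window of Ephx1, chr13:95275803-95276102, at the outer start of the gene. It was not printed and held neither motif. Of all 33469 windows of 300 bases, 7.98% held the half-site and 12.1% the antioxidant response element. These matches describe the letters of the windows only.

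Among genes of DNA repair, Mgmt stood out. It encodes the protein that removes alkyl groups from the O6 position of guanine. On day 7 it had 9.59, 9.70 and 9.29 in 2-AAF livers and 8.33, 8.08 and 8.14 in vehicle livers, and on day 14 it had 10.34, 10.40 and 9.87 against 8.89, 7.98 and 8.49 in vehicle livers. Groups did not overlap on either day. The rises were 2.53-fold (adjusted p = 2.7e-05) and 3.36-fold (adjusted p = 7.7e-10), after changes of 0.20 and 0.16 on days 1 and 3. Lig3, a ligase of base excision and single-strand break repair, had 8.18, 8.39 and 8.46 in 2-AAF livers of day 14 and 7.40, 7.76 and 7.46 in vehicle livers, a rise of 0.80 ± 0.14 (adjusted p = 2.6e-05). Against the mean of the 6 carboxymethylcellulose vehicle groups of that day the Lig3 change was 0.35. In the repair list, with 20 of 26 genes measured, limma called 0, 0, 1 and 2 higher and 0 lower. Of all probe sets 0.0567%, 0.0189%, 0.164% and 0.687% were called higher on the 4 days. An unadjusted p below 0.05 was reached by 4, 0, 4 and 6 of the 20. Over all genes the shares were 18.4%, 7.15%, 15.8% and 25.1%. Of the 6 on day 14, 3 lay above and 3 below vehicle, among the latter Ogg1 (-0.38, adjusted p = 0.0015 in limma, under 1.5-fold).

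Nhej1, outside that list, encodes a factor that assists the joining of DNA double-strand breaks. It had 7.02, 7.16 and 6.92 in 2-AAF livers of day 7 against 6.47, 6.48 and 6.34 in vehicle livers, a 1.52-fold rise (adjusted p = 0.0068) that did not pass without vehicle array 3 (0.56, adjusted p = 0.058). On day 14 the values were 8.07, 8.30 and 7.79 against 6.34, 6.48 and 6.64, a 2.96-fold rise (adjusted p = 6.3e-20). The change grew by 0.96 between days 7 and 14 (adjusted p = 0.01 for the difference).

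The second largest rise among the named genes of day 14 was that of Vxn, which encodes vexin, a protein known from neural differentiation in frog embryos. In vehicle livers it was dim throughout, below the 25th percentile of all values (6.19) or close to it. The 2-AAF livers of day 7 had 7.27, 7.70 and 7.72, against 6.22, 6.19 and 6.17 in vehicle livers, and those of day 14 had 8.23, 9.50 and 8.23, against 6.13, 6.18 and 6.25. This amounted to rises of 2.59-fold (adjusted p = 1.7e-09) and 5.53-fold (adjusted p = 3.7e-29). The change on day 7 exceeded that on day 3 by 1.24 (adjusted p = 0.029), and that on day 14 exceeded day 7 by 1.09 (adjusted p = 0.026).

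Several genes with unrelated functions also rose on day 14, some of them already on day 7. Atp6v1d, a subunit of the vacuolar proton pump, had 10.93, 10.87 and 11.02 in 2-AAF livers of day 14 and 9.97, 9.58 and 9.66 in vehicle livers, and its change was 0.82 ± 0.14 on day 7 (adjusted p = 2.7e-05) and 1.20 ± 0.14 on day 14 (adjusted p = 1.5e-12). Glrx3, a glutaredoxin with a role in iron-sulfur protein assembly, rose by 0.65 and 0.80 (adjusted p = 0.00025 and 4e-07). Hyal3, of the hyaluronidase family, had 10.99, 11.26 and 11.29 in 2-AAF livers of day 14 and 9.12, 9.88 and 10.29 in vehicle livers (2.66-fold, adjusted p = 3.1e-08). Its 0.70 on day 7 passed (adjusted p = 0.038) only with vehicle array 3 (adjusted p = 0.14 without it). The basement membrane gene Lama5 had 7.44, 7.93 and 7.87 in 2-AAF livers of day 14 and 6.45, 6.32 and 6.29 in vehicle livers (2.63-fold, adjusted p = 2.7e-12), whereas a dimmer second probe set of Lama5 changed by -0.04. The change of Lama5 was larger on day 14 than on day 7 by 0.96 (adjusted p = 0.042), while the same difference was 0.15 for Glrx3 (adjusted p = 0.76) and -0.02 for 4930522L14Rikl (adjusted p = 0.99). The gene 4930522L14Rikl, whose probe set may also bind related transcripts, had 9.07, 9.18 and 9.48 in 2-AAF livers of day 7 and 8.38, 8.05 and 7.70 in vehicle livers (1.20, adjusted p = 1.4e-05), and rose by 1.18 on day 14 (adjusted p = 6.2e-06).

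Aldh1a1, an aldehyde dehydrogenase that oxidises retinal, had the largest rise of day 14 among genes with a probe set of their own, to 12.23, 12.22 and 11.98 in 2-AAF livers against 7.76, 7.41 and 8.97 in vehicle livers. This was 17.1-fold (4.09 ± 0.47, adjusted p = 3.2e-13), or 3.31 on the log2 scale against the 6 carboxymethylcellulose vehicle groups. A probe set that is listed under more than 1 gene, and is therefore not named, rose by 4.49 (adjusted p = 6.6e-25). Vehicle animals varied widely in Aldh1a1. On day 1 the 2-AAF livers had 10.71, 10.40 and 8.90 and the vehicle livers 8.17, 8.28 and 9.15, which overlapped although the gene was called (1.47 ± 0.47, adjusted p = 0.049), and on day 3 they had 10.48, 9.55 and 10.07 against 8.32, 9.86 and 10.74 (0.39 ± 0.47, not called). Day 7 gave 11.29, 10.33 and 10.28 in 2-AAF livers and 7.95, 8.19 and 9.45 in vehicle livers, a 4.31-fold rise without overlap (adjusted p = 0.0032) that did not pass when 2-AAF array 1 was left out (1.78, adjusted p = 0.058).

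Aldh1a1 belongs to the list of CAR and PXR targets, of which 18 of 24 were measured. An unadjusted p below 0.05 was reached by 2, 0, 4 and 6 of the 18 on days 1, 3, 7 and 14. Over all genes the shares were 18.4%, 7.15%, 15.8% and 25.1%. On these days limma called 1, 0, 3 and 5 members higher and none lower. Of all probe sets 0.0567%, 0.0189%, 0.164% and 0.687% were called higher. Without vehicle array 3, 4 were called on day 14, where 0.819% of all probe sets were called higher. The other called members were enzymes of hydrolysis and conjugation and 1 transporter. Ces2c, a carboxylesterase, had 9.26, 9.18 and 9.30 in 2-AAF livers of day 7 and 8.13, 8.23 and 8.51 in vehicle livers (1.94-fold, adjusted p = 0.0063). On day 14 it had 10.31, 10.04 and 10.00 against 8.47, 8.26 and 8.49 (3.27-fold, adjusted p = 7.1e-10). Ephx1, the microsomal epoxide hydrolase, had 13.34, 13.20 and 13.24 in 2-AAF livers of day 7 and 12.53, 12.54 and 12.62 in vehicle livers (1.62-fold, adjusted p = 0.007), and 13.68, 13.87 and 13.78 against 12.42, 12.40 and 12.93 on day 14 (2.29-fold, adjusted p = 4.8e-09). Both enzymes were higher in every 2-AAF animal than in any vehicle animal of these days, as read on the arrays that gave the calls.

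Ugt2b1, a glucuronosyltransferase, and Abcc2, the canalicular export pump for conjugates, were called on day 14 only. Ugt2b1 had 11.61, 12.04 and 11.58 in 2-AAF livers and 10.65, 10.47 and 11.30 in vehicle livers (0.94 ± 0.31, adjusted p = 0.036). Abcc2 had 10.95, 11.32 and 10.87 against 10.05, 10.76 and 10.48 (0.62 ± 0.20, adjusted p = 0.03), and did not pass without vehicle array 3 (adjusted p = 0.053). On day 14 the P450 genes Cyp2b12, Cyp3a2, Cyp3a23-3a1, Cyp3a18 and Cyp2c6v1 changed by -0.01 to 0.27, and the export pump gene Abcc3 by 0.07. Of the other P450 genes, Cyp2a1 rose by 0.44 (adjusted p = 0.021, under 1.5-fold) and Cyp3a9 changed by -0.34 (adjusted p = 0.67). None of these was called. Cyp2b12 was the only gene of the CYP2B family among the measured members.

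Of the NRF2 targets 28 of 35 were measured. An unadjusted p below 0.05 was reached by 4, 2, 4 and 9 of the 28 on days 1, 3, 7 and 14. Over all genes the shares were 18.4%, 7.15%, 15.8% and 25.1%. On these days limma called 0, 0, 1 and 4 members higher and none lower. Of all probe sets 0.0567%, 0.0189%, 0.164% and 0.687% were called higher. The member common to days 7 and 14 was Ephx1, which is also in the CAR and PXR list. Akr7a3, an aldo-keto reductase known for reducing aflatoxin dialdehyde, had 11.88, 11.71 and 11.90 in 2-AAF livers of day 14 and 10.53, 9.82 and 10.46 in vehicle livers (2.95-fold, adjusted p = 0.00036). Srxn1, a sulfiredoxin that repairs peroxiredoxins, had 9.37, 9.22 and 9.30 against 8.74, 8.56 and 8.59 (0.67 ± 0.19, adjusted p = 0.012). The glutathione transferase gene Gsta3 had 9.44, 7.33 and 6.81 in 2-AAF livers and 5.85, 6.01 and 6.88 in vehicle livers, a called change of 1.61 ± 0.51 (adjusted p = 0.029) that rested on array 1 and left the groups overlapping. Txnrd1 changed by 0.46 (adjusted p = 0.023), under 1.5-fold, and Nqo1, Gclc and Hmox1 by 0.46, 0.37 and -0.04, not called. Nfe2l2, the gene of NRF2 itself, had 11.03, 11.04 and 11.18 in 2-AAF livers of day 14 and 9.73, 9.71 and 10.06 in vehicle livers (2.38-fold, adjusted p = 4.8e-06). Its 0.71 on day 7 (adjusted p = 0.039) did not pass without vehicle array 3 (adjusted p = 0.051).

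**Figure D4:**
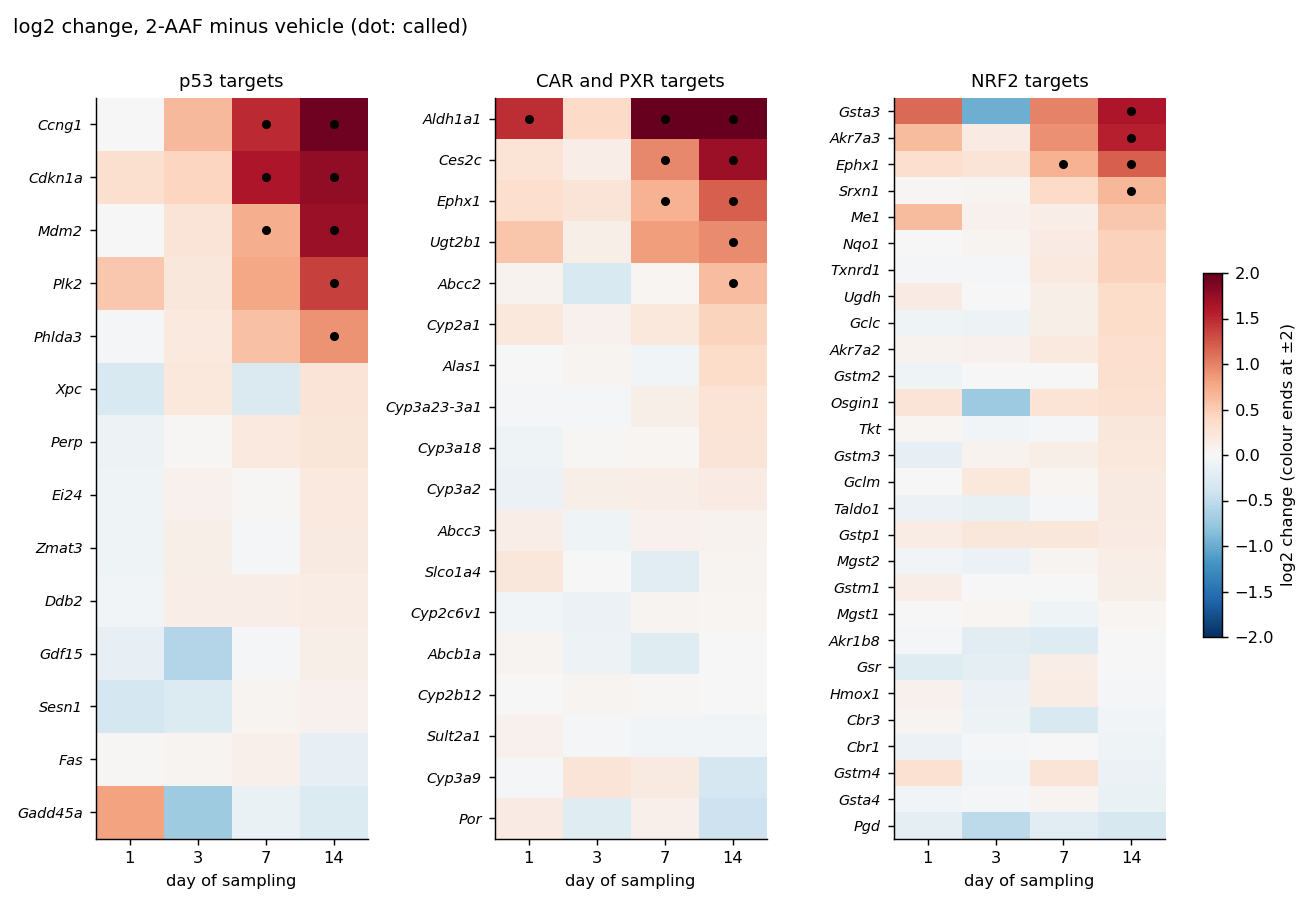
Log2 change, 2-AAF minus vehicle, of every measured p53, CAR and PXR, and NRF2 target on each day; a dot marks a called gene and the colour scale ends at 2 in either direction. The called members gather on days 7 and 14, with 5 p53 targets, 5 CAR and PXR targets and 4 NRF2 targets on day 14, and most other members of each list remain near 0. On day 14, 0.687% of all probe sets were called higher.

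Of the 17 genes of arylamine metabolism 13 were measured, and limma called Ces2c alone, on days 7 and 14, a gene that this list shares with the CAR and PXR targets. On days 7 and 14, 0.164% and 0.687% of all probe sets were called higher. An unadjusted p below 0.05 was reached by 1, 0, 3 and 3 of the 13 on days 1, 3, 7 and 14. Over all genes the shares were 18.4%, 7.15%, 15.8% and 25.1%. Cyp1a2, the N-hydroxylating P450, had 13.48, 13.64 and 13.48 in 2-AAF livers of day 7 and 12.73, 12.30 and 13.28 in vehicle livers, a change of 0.76 ± 0.26 without overlap that missed the threshold (adjusted p = 0.089), and its change on day 14 was 0.00. The acetyltransferase genes Nat1 and Nat2 and the sulfotransferase genes Sult1a1 and Sult1c3 changed by -0.17 to 0.14 on days 7 and 14. Of the AHR targets 6 of 8 were measured and limma called 0 on every day, with 0, 0, 2 and 1 at an unadjusted p below 0.05, and Cyp1a1, a sensitive AHR target in liver, changed by 0.15, 0.38, 0.31 and -0.18 over the 4 days. Aldh3a1 changed by -0.50 on day 14 (adjusted p = 0.034 in limma, under 1.5-fold). The list median of that day was -0.188, against -0.018 over all genes.

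Among cell cycle genes, limma called none of the 32 measured members on any day, and 2, 1, 1 and 2 had an unadjusted p below 0.05. Their median change was 0.067, -0.063, -0.104 and -0.206 on days 1, 3, 7 and 14, and on day 14 the proliferation genes Mki67, Top2a, Cdk1 and Ccnb1 changed by -0.21, -0.42, -0.45 and -0.31. Of 8 measured markers of preneoplastic liver foci, lesions that 2-AAF is known to produce in rat liver, Akr7a3 alone was called by limma, on day 14, when 0.687% of all probe sets were called higher. An unadjusted p below 0.05 was reached by 3, 0, 1 and 3 on the 4 days. Of the 3 on day 14, 1 lay above and 2 below vehicle. Aldh3a1, shared with the AHR targets, changed by -0.50 on day 14 (adjusted p = 0.034 in limma, under 1.5-fold). Gstp1 changed by 0.22 and 0.16 and Afp by -0.02 and -0.13 on days 7 and 14. In all, 20 of the 32 lists had no call on any day. Without vehicle array 3 it was 24, since 5 lists lost all their calls (bile duct, red cell, pancreas and muscle markers, and glucose control) and the amino acid and unfolded protein response list gained Psph, a serine synthesis enzyme, lower on day 14 (-0.73, adjusted p = 0.001, against -0.49, adjusted p = 0.017, with the array). The 20 lists hold 316 genes, of which 37, 24, 39 and 50 had an unadjusted p below 0.05 in limma on days 1, 3, 7 and 14, against 1919, 744, 1647 and 2614 of all 10411 genes. In 3 cases at least 5 genes of a list and at least 1.5 times the share of all genes had such a p. Of the cholesterol synthesis genes 8 of 18 (44.4%, against 7.15% of all genes) did on day 3, all 8 below vehicle, with a list median of -0.39. Of the macrophage markers 6 of 12 (50.0%, against 15.8%) did on day 7 and of the targets of PPARA, the fatty acid receptor of liver, 15 of 34 (44.1%, against 25.1%) on day 14, all above vehicle, with list medians of 0.41 and 0.18. None of these genes was called.

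Bile acid genes had 2 of 20 called higher on day 14, where 0.687% of all probe sets were, or 1 of 20 without vehicle array 3, where 0.819% were. They were Abcc2, the one lost, and Abcb4, the phosphatidylcholine exporter of the bile canaliculus (0.83 ± 0.21, adjusted p = 0.0053). On the lower side of day 14, Alas2, which starts haem synthesis in red cells, had 8.47, 9.40 and 9.19 in 2-AAF livers and 10.38, 10.03 and 10.17 in vehicle livers (-1.18 ± 0.37, adjusted p = 0.025). The mean of the 5 red cell markers was 9.07 to 9.64 in 2-AAF livers and 9.93 to 10.08 in vehicle livers of that day, without overlap. On day 1 the groups were apart too, at 9.77 to 10.02 against 10.18 to 10.26, while they overlapped on days 3 and 7. On day 14, 4 of the 5 had an unadjusted p below 0.05, and the globin gene Hbb changed by -0.79 (adjusted p = 0.094). Alas2 did not pass without vehicle array 3 (adjusted p = 0.053). Sds, the serine dehydratase that feeds gluconeogenesis, had 8.34, 8.29 and 8.94 against 10.03, 9.43 and 9.83 in vehicle livers (-1.24 ± 0.43, adjusted p = 0.049), with an adjusted p of 0.11 without array 3.

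Counted as genes rather than probe sets, 62 were called higher and 22 lower on day 14. Of these, 53 and 6 had groups that did not overlap and were also called without vehicle array 3. The separation was read on the arrays that gave the calls and adds no evidence to them. The falling 6 were Anp32a, Aspa, Tspan4, Adam15, Alox15 and Mt1. Aspa, an aspartoacylase, had 7.43, 7.36 and 7.42 in 2-AAF livers and 9.08, 7.52 and 8.37 in vehicle livers (-0.92 ± 0.25, adjusted p = 0.011), so that the distance lay mostly in 2 vehicle animals. Its change did not pass without vehicle array 1 (-0.54, adjusted p = 0.22) or 2-AAF array 2 (-0.90, adjusted p = 0.061). Tspan4, a tetraspanin, had 9.88, 10.24 and 9.68 against 11.33, 10.29 and 10.53 (-0.79 ± 0.20, adjusted p = 0.0049), and without vehicle array 1 the change was -0.48 and did not pass (adjusted p = 0.16). Mt1, a metallothionein, had 6.22, 6.29 and 6.64 in 2-AAF livers and 7.08, 6.92 and 6.92 in vehicle livers (-0.59 ± 0.13, adjusted p = 0.00093), and came to under 1.5-fold without 2-AAF array 1 or 2 or vehicle array 1 (-0.51, -0.54 and -0.53). The falls of the metalloproteinase gene Adam15 (-0.73) and of the lipoxygenase gene Alox15 (-0.62) lay closer to the threshold (adjusted p = 0.049 and 0.031). Adam15 did not pass without any 1 of the 2-AAF arrays or vehicle array 1 or 2, at most 0.29 in adjusted p, and Alox15 did not pass without 2-AAF array 1 or 2 or vehicle array 1 or 2, at most 0.15.

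Day 1 had more falls than rises. Of the 15 genes called lower on day 1, all had groups that did not overlap, as read on the arrays that gave the calls. Dmgdh, the mitochondrial dimethylglycine dehydrogenase, had 9.91, 10.42 and 10.16 in 2-AAF livers and 11.18, 11.01 and 11.05 in vehicle livers (-0.92 ± 0.22, adjusted p = 0.0066), and its change on day 14 was -0.14. Abcd3, a peroxisomal fatty acid transporter, changed by -0.70 (adjusted p = 0.0084), a call lost without 2-AAF array 1 (-0.57, adjusted p = 0.068) or vehicle array 3 (-0.60, adjusted p = 0.08). The chromatin remodelling gene Pbrm1 had 6.80, 6.21 and 6.72 in 2-AAF livers against 7.39, 6.94 and 7.51 in vehicle livers (-0.70, adjusted p = 0.012). Ubr1, a ubiquitin ligase, had 7.72, 7.20 and 7.83 against 8.36, 8.04 and 8.25 (-0.63, adjusted p = 0.011). The Golgi trafficking gene Gosr1 changed by -0.66, Alox15 by -0.64, Mmgt1 by -0.64, Marcksl1 by -0.61 and Tmem33 by -0.61, all called. Higher on day 1 without overlap were Islr, a secreted protein of mesenchymal cells, with 8.52, 8.73 and 8.40 against 7.78, 7.98 and 7.84 (0.68 ± 0.12, adjusted p = 2.7e-05), and the transcription factor gene Nfix with 7.66, 7.72 and 7.71 against 6.85, 7.20 and 6.91 (0.71 ± 0.16, adjusted p = 0.0051). Several calls of this day were lost when a single array was left out. Without 2-AAF array 2, those of Pbrm1 (-0.52), Ubr1 (-0.44), Gosr1 (-0.69), Alox15 (-0.52), Mmgt1 (-0.49), Marcksl1 (-0.55) and Tmem33 (-0.42) were lost, and without vehicle array 1 the same 7 and Nfix (0.64, adjusted p = 0.056) were lost. Leaving out vehicle array 3 lost all of the 7 but Marcksl1, and vehicle array 2 Alox15, Gosr1, Mmgt1 and Tmem33. Without 2-AAF array 1 the call of Alox15 was lost and without 2-AAF array 3 that of Gosr1, and the changes in these last 4 settings were -0.55 to -0.71.

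Anp32a, a nuclear phosphoprotein that inhibits protein phosphatase 2A, had a lower mean on all 4 days and was called on 3 of them. It had 9.19, 8.79 and 9.17 in 2-AAF livers of day 1 and 10.43, 10.10 and 10.17 in vehicle livers (-1.18 ± 0.24, adjusted p = 0.0012). On day 3 the values were 9.24, 9.11 and 9.27 against 10.43, 10.38 and 10.44 (-1.21 ± 0.24, adjusted p = 0.0045), which did not pass without 2-AAF array 2 (adjusted p = 0.073), vehicle array 1 (adjusted p = 0.056) or vehicle array 3 (adjusted p = 0.063), with a change of -1.16 to -1.20. On day 7 they were 9.12, 8.96 and 10.29 against 10.27, 10.14 and 10.13, where 2-AAF array 3 lay above all vehicle animals and the change was not called (-0.73 ± 0.24, adjusted p = 0.082), and on day 14 they were 9.32, 9.58 and 8.81 against 10.18, 10.30 and 10.42 (-1.06 ± 0.24, adjusted p = 0.0016).

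COX1, the mitochondrially encoded subunit 1 of cytochrome c oxidase, ran the other way. It had 14.20, 14.04 and 14.09 in 2-AAF livers of day 3 and 13.16, 13.15 and 12.86 in vehicle livers (1.06 ± 0.18, adjusted p = 0.00021), and 13.86, 13.86 and 14.07 against 13.07, 13.40 and 12.97 on day 14 (0.78 ± 0.18, adjusted p = 0.0019). On days 1 and 7 the groups were apart too, with changes of 0.57 (adjusted p = 0.049, under 1.5-fold) and 0.49 (adjusted p = 0.13). Together with Chtf8 (-0.60, adjusted p = 0.045), these were the genes called on day 3. The call of Chtf8 was lost without any 1 of the 6 arrays (adjusted p = 0.051 to 0.4). The change on day 14 minus that on day 1 was 0.12 ± 0.34 for Anp32a (adjusted p = 0.86) and 0.21 ± 0.26 for COX1 (adjusted p = 0.65). Both genes also separated 2-AAF from PB livers, by -1.34, -1.18, -0.99 and -1.12 for Anp32a and by 0.76, 1.18, 0.62 and 0.93 for COX1.

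Both levels also varied among untreated livers of the series. The mean of Anp32a was 9.05 to 9.46 in the 4 2-AAF groups, 10.18 to 10.42 in their 4 vehicle groups and 8.39 to 10.55 in the 34 other vehicle groups, 9 of which lay within the range of 2-AAF. In 3 other study blocks all vehicle groups were as low, with means between 8.39 and 9.19. For COX1 the means were 13.71 to 14.11 in 2-AAF groups, 13.06 to 13.22 in their vehicle groups and 12.44 to 14.09 in the others, with 6 of the 34 within the range of 2-AAF. Whether the 2-AAF animals differed from the CMC_1B animals in something other than the compound was not tested.

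**Figure D5:**
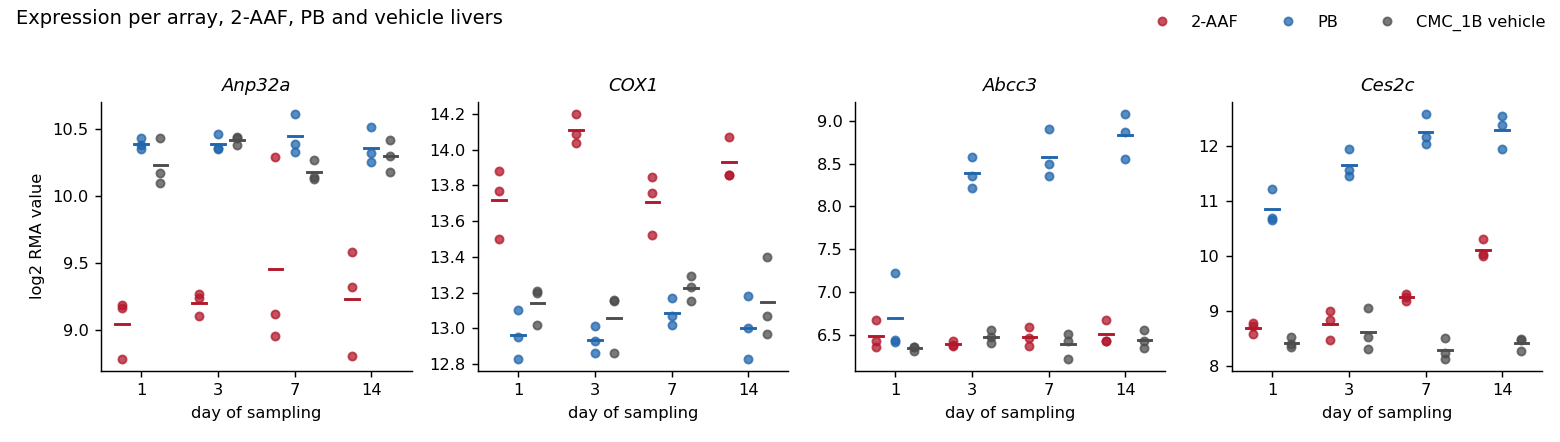
Log2 value of Anp32a, COX1, Abcc3 and Ces2c on each array of 2-AAF, PB and CMC_1B vehicle animals by day. For Anp32a and COX1 the 2-AAF animals lie apart from both other groups on days 1, 3 and 14, while Abcc3 and Ces2c are highest in PB livers, at 8.55 to 9.08 and 11.95 to 12.55 on day 14.

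The growth of the response was tested as the difference between the change on day 14 and the change on day 1. This was called for 267 probe sets (1.68%), 247 (1.56%) with a larger change on day 14 and 20 (0.126%) with a smaller one. A change that differed among the 4 days in any way was found for 197 (1.24%). Among named genes the largest differences were 2.63 for Aldh1a1 (adjusted p = 0.01), 2.29 for Vxn (adjusted p = 4.9e-13), 1.95 for Ccng1 (adjusted p = 3.3e-10), 1.72 for Mdm2 (adjusted p = 7e-07), 1.54 for Mgmt (adjusted p = 0.0015) and 1.48 for Hyal3. Ces2c with 1.43, Lama5 and Nfe2l2 with 1.36 each and Nhej1 with 1.33 (adjusted p = 7e-07) also passed. The 1.45 of Cdkn1a (adjusted p = 0.035) was lost under 9 of the other settings, among them without 2-AAF array 3 of day 14 (1.10, adjusted p = 0.13), without 2-AAF array 2 of day 1 (1.39, adjusted p = 0.1) and without vehicle array 1 or 3 of either day (1.34 to 1.47, adjusted p = 0.057 to 0.08). The difference of Aldh1a1 did not pass without vehicle array 3 of day 1 (2.32, adjusted p = 0.054).

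Not all of the 247 were risers. Their median change was -0.29 on day 1, when 22 of them lay above vehicle, and 0.45 on day 14, when 246 did, and only 13 and 58 of them were called on these days. Averaged over these probe sets, the 2-AAF arrays had 8.00 to 8.18 on day 1 against 8.30 to 8.45 in vehicle arrays, and 8.65 to 8.71 on day 14 against 8.02 to 8.22 in vehicle arrays. The probe sets were selected on these arrays, so the values are a description. Pbrm1 and Ubr1 were of this kind, with changes of 0.42 ± 0.18 and 0.31 ± 0.16 on day 14 that were not called. Of the differences in the other direction, Tcta had the smallest adjusted p, with 9.20, 9.42 and 9.23 in 2-AAF livers against 8.85, 9.01 and 8.81 in vehicle livers of day 1, and 8.83, 8.93 and 8.80 against 9.57, 9.09 and 9.22 on day 14 (difference -0.83 ± 0.11, adjusted p = 5.8e-09). The difference of -1.38 for Krt4 went with vehicle array 3 of day 14, without which its change on that day was -0.35 (adjusted p = 0.5).

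The contrast with PB takes no mean from a vehicle array, which enters only through the shared variance. On day 14, 181 probe sets (1.14%) differed, 124 (0.782%) higher and 57 (0.359%) lower in 2-AAF than in PB livers, and 180 of them were also called without vehicle array 3. The response genes of 2-AAF were among the highest, with differences of 2.50 for Vxn (adjusted p = 7.9e-30), 2.16 for Mgmt and 2.14 for Ccng1, followed by the fatty acid desaturase gene Scd (2.00, adjusted p = 0.046) and the rat steroid hydroxylase gene Cyp2c12 (1.98, adjusted p = 0.0028). Scd and Cyp2c12 were not called against vehicle, with changes of 0.04 and 0.54. The difference of Scd did not pass without 2-AAF array 1 or 2 or any 1 of the PB arrays (1.70 to 2.32, adjusted p = 0.063 to 0.17). Lower in 2-AAF were Abcc3 with 6.43, 6.43 and 6.67 against 8.87, 8.55 and 9.08 in PB livers (-2.32, adjusted p = 2.5e-21), Ces2c with 10.31, 10.04 and 10.00 against 12.39, 12.55 and 11.95 (-2.18, adjusted p = 4.3e-16), the methyltransferase gene Inmt (-1.69, adjusted p = 0.017), the P450 reductase gene Por (-1.49, adjusted p = 9.1e-08) and Nat8f3 (-1.41, adjusted p = 2.6e-06). Inmt did not pass without 2-AAF array 2 or 3 or PB array 2 (-1.31 to -1.55, adjusted p = 0.063 to 0.15).

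Other detoxification genes were not separated from PB on day 14. Aldh1a1 had 12.23, 12.22 and 11.98 in 2-AAF livers and 12.49, 12.39 and 12.09 in PB livers (-0.19 ± 0.47, adjusted p = 0.83), after -1.65 on day 7 (adjusted p = 0.021). Ephx1 had 13.68, 13.87 and 13.78 against 13.86, 13.77 and 13.85 (-0.05 ± 0.17, adjusted p = 0.88), after -0.55 on day 7 (adjusted p = 0.035, under 1.5-fold). Akr7a3 differed by 0.46 ± 0.32 (adjusted p = 0.34). These values do not show that the livers were alike.

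2-Nitrofluorene (2-NF) shares the fluorene ring and carries a nitro group in place of the acetylamino group. It was given at 44 mg/kg in corn oil and profiled on days 3 and 7, so dose and vehicle both differ and the values are only set side by side, each as the log2 change against its own vehicle. Ccng1 changed by 0.65 and 1.49 with 2-AAF and by 2.48 and 2.62 with 2-NF on days 3 and 7. Cdkn1a gave 0.43 and 1.61 with 2-AAF and 2.17 and 2.46 with 2-NF, and Mdm2 gave 0.25 and 0.72 against 1.80 and 1.70. For Vxn the values were 0.13 and 1.37 with 2-AAF and 2.51 and 1.69 with 2-NF, for Mgmt 0.16 and 1.34 against 1.81 and 1.38, and for Nhej1 0.12 and 0.60 against 1.23 and 1.69. The next genes belong to detoxification. Aldh1a1 gave 0.39 and 2.11 with 2-AAF and 2.89 and 3.31 with 2-NF, Ephx1 0.25 and 0.70 against 1.40 and 1.36, Akr7a3 0.17 and 0.92 against 3.03 and 2.61, and Gsta3 -0.97 and 0.99 against 3.55 and 3.70. Plk2 and Nfe2l2 gave 0.77 and 0.71 with 2-AAF on day 7 and 0.45 and 0.61 with 2-NF.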

How the data were processed

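Liver RNA of 1 animal per array was measured on the Affymetrix RAE230A array. The authors deposited log2 values made by RMA (robust multi-chip average), which corrects background, normalizes the arrays to each other and summarises the probes of a set. The sources used here give no version of RMA. No detection call comes with these values, and the number of arrays limits the precision. No pair of arrays held identical values, and array medians lay between 7.384 and 7.491.

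Gene names came from the platform table, updated through the gene identifier: of 15866 probe sets, 12783 carried a single symbol, 312 more than 1, and 2771 were unlisted and stay unnamed; 12748 were found in the gene table. The brightest probe set with 1 symbol stood for a gene (10411 genes).

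Groups, doses, days and the vehicle group were taken from the labels. The test was limma 3.58.1 in R 4.3.3, with 1 mean per group over all 421 arrays and moderated variances (285 residual, 4.67 prior degrees of freedom). Named were, per day, the 10 largest rises and falls among called genes with groups apart (for days 7 and 14 also called without vehicle array 3), the 10 largest day 14 minus day 1 differences of each sign, the 5 largest of each sign against PB, and list members. Same-numbered arrays were not paired, as their deviations correlated between -0.17 and 0.14, over 0.1 in 2 of 12 pairs. The members and the 32 gene lists were chosen with earlier results of these data known. On simulated data 98 to 100 of 100 2-fold and 99 to 100 of 100 4-fold changes per day were recovered, with 0 to 2 false calls. The simulated arrays had independent normal noise, no transcripts of other tissues and no differences between study blocks. No change smaller than 2-fold was put in. These counts check the fit only and do not give the rate of missed or false calls on the real arrays.

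Alternatives were fits of fewer arrays, a further quantile normalization, leaving out probe sets with a mean below 6, a replicate block and each array left out. A comparison with 6 carboxymethylcellulose vehicle groups, the smallest fit without vehicle array 3, and the PB contrast without it, were chosen after seeing the data. Tables and plots used Python 3.11.15, pandas 2.3.3, numpy 2.4.6 and matplotlib 3.10.9.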

Additional observations from a re-analysis of the deposited data

Results flagged for a closer look

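The difference between the change on day 14 and the change on day 1 was tested directly, and a called difference drew attention to 267 probe sets, while 197 had a change that differed among the 4 days.

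Genes whose change was larger on day 14 were, with the size of the difference on the log2 scale, Aldh1a1 (2.63), Vxn (2.29), Ccng1 (1.95), Mdm2 (1.72), Mgmt (1.54), Hyal3 (1.48), Cdkn1a (1.45), Ces2c (1.43), Lama5 (1.36), Nfe2l2 (1.36), Nhej1 (1.33), 4930522L14Rikl (1.03), Atp6v1d (0.96), Ephx1 (0.86) and Glrx3 (0.79). Each of these was called higher on day 14. Pbrm1 (1.12), Ubr1 (0.94), Mmgt1 (0.85) and Marcksl1 (0.73) differ from them in that they were called lower on day 1.

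The opposite sign was found for Krt4 (-1.38), Aspa (-1.31), Tmem9 (-1.08), Hspb6 (-0.83), Tcta (-0.83), Ldhb (-0.74), Tcam1 (-0.71), Fundc2 (-0.70), Csrp3 (-0.68), Mocs2 (-0.63) and Islr (-0.62). Krt4 was high on vehicle array 3 of day 14 only. Without that array the differences of Krt4, Hspb6 and Csrp3 were -0.41, -0.44 and -0.35. None of these passed in limma (adjusted p = 0.56, 0.31 and 0.24). Tmem9 had 8.17, 8.32 and 7.31 in 2-AAF livers against 7.44, 7.27 and 7.74 in vehicle livers of day 1, and 7.95, 7.69 and 7.11 against 8.07, 8.09 and 8.48 on day 14, and its difference was lost under 12 other settings. Those of Krt4, Hspb6 and Fundc2 were lost under 10 settings each, Mocs2 under 9, Aspa and Csrp3 under 7 and Ldhb under 2. Those of Tcta and Tcam1 held under every setting.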

How the results depend on the processing

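Of 71 results for named genes, 37 kept their call under every setting tried, and no call of them changed sign. The filter at a mean of 6 changed no call; quantile normalization lost 4, the study-block fit 10, the smallest fit (2-AAF and CMC_1B arrays) 16, leaving out vehicle array 3 of days 7 and 14 5 of 56, and the 6 carboxymethylcellulose vehicle groups 17 of 41. Named genes of days 7 and 14 were chosen among those called without vehicle array 3. Their calls of these days could therefore not be lost under that setting, which also enters the 37. Of 128 list medians, 11 moved.

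The count of day 7 changed under several settings: 61 became 28 in the study-block fit, 23 in the smallest fit, 21 without vehicle array 3, 21 in the smallest fit without it and 17 against the 6 vehicle groups. Against these groups day 1 gave 20 instead of 33 and day 14 gave 73 instead of 138. The day 14 minus day 1 count was 161 instead of 267 in the smallest fit without vehicle array 3. Changes that differ among the 4 days numbered 98 in the study-block fit, 33 in the smallest fit and 23 in that fit without vehicle array 3, instead of 197.

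With the replicate number as a block, which does not pair these animals, 3 were called on day 3 and 21 on day 7, 32 differed among the days, and 21 named results lost their call; the counts of days 1 and 14, the day 14 minus day 1 difference and 2-AAF against PB stayed within 1.5 times.

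Leaving out 1 array in turn gave 15 to 63 on day 1, 2 to 4 on day 3, 21 to 97 on day 7, 96 to 202 on day 14, 115 to 378 for day 14 minus day 1, 84 to 403 among the days and 122 to 250 against PB. On day 1 the count was 15 without 2-AAF array 2 or vehicle array 1, 17 without vehicle array 3 and 63 without 2-AAF array 3. On day 3 it was 2 without 2-AAF array 2 or vehicle array 3, and 3 without 2-AAF array 1 or 3 or vehicle array 1. On day 7 it was 35 without 2-AAF array 1, 97 without vehicle array 2 and 21 without vehicle array 3. The day 14 minus day 1 count was 115 without 2-AAF array 2 of day 1, 149 without vehicle array 3 of day 1 and 172 without 2-AAF array 2 of day 14. Among the days it was 84, 98 and 107 without 2-AAF array 2, vehicle array 1 and vehicle array 3 of day 1, 298 without vehicle array 1 of day 7, 126, 101 and 124 without 2-AAF array 1, 2 and 3 of day 14, and 85 and 403 without vehicle array 1 and 2 of day 14. Of 546 such values for named genes, 106 lost their call. Causes were not tested. With 3 animals a group, a probe set that missed the threshold may still differ.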
